A study of Mus musculus with 9 samples.

Results

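The genes described here are the 7 suppressors of cytokine signalling Socs1 to Socs7, their relative Cish and the kinase genes Pim1 and Pim2. They were taken by name, though with earlier results of these data known, and make up 10 of the 37980 mouse genes in the data. The data hold 4 samples of NA MPs and 5 of WT MPs, each of 100000 myeloid progenitors (MPs; Lin-c-kit+Sca1-) sorted from bone marrow of C57BL/6 mice. NA MPs were Tdtomato+ cells from irradiated adult recipients of NA multipotent progenitors (MPPs), and WT MPs were sorted as CD45.2+ from mice given WT MPPs, with bone marrow helper or competitor cells given alongside the MPPs. NA stands for the Nup98-Hoxa10hd fusion gene, here in NA LSL/+; Vav-Cre donors, in which Cre is driven by the Vav promoter and is active throughout the blood lineage, so the fusion is not limited to MPs. The labels place the sort 3 months post-transplantation, and the study's methods give a later time. Those methods elsewhere describe the recipients as CD45.2+ and WT donor cells as CD45.1+, and a donor, helper or recipient origin of the WT MPs therefore cannot be told apart. Nothing states that each sample came from a separate mouse, and the p-values then measure only the spread between these samples, which may be technical.

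Cytokines bind receptors that carry Janus kinases (JAKs), which phosphorylate STAT transcription factors. Cish and several Socs genes are transcribed in response to STATs, and their proteins bind receptors or JAKs through an SH2 domain and recruit a ubiquitin ligase through the SOCS box, which limits the signal. Pim1 and Pim2 are also induced by cytokines and encode serine/threonine kinases, active without further phosphorylation, that favour survival and growth of blood cells.

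Among the members, Socs3 and Pim1 were higher in NA MPs than in WT MPs. Socs3 rose 1.58 on the log2 scale and Pim1 rose 0.75, and in both genes every NA MP sample lay above every WT MP sample. Socs2, too low for the main test, had the same separation. No difference past the threshold was found for Cish, Socs4, Socs5, Socs6, Socs7 and Pim2, and Socs1 was too low for the main test.

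Sequence near the RefSeq start is shown for Cish, since it holds a pair of STAT motif matches, and for Socs3 and Pim1, the members that rose. The sequences are from RefSeq (GRCm38.p6), 5′ to 3′ on the strand of the gene, and capitals mark matches to the STAT motif TTCNNNGAA, known as GAS. The stretches are chr9:107296654-107296683 for Cish (plus strand), chr11:117969452-117969616 for Socs3 (minus strand) and chr17:29490535-29490752 for Pim1 (plus strand). RefSeq and GENCODE place these starts differently, and the GENCODE spans given below for these 3 genes begin upstream of the RefSeq start. The Cish stretch is exonic in GENCODE, the Socs3 stretch lies inside the GENCODE span of the gene but in none of its exons, and the Pim1 stretch lies before the gene.
Cish: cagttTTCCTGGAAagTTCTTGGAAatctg
Socs3: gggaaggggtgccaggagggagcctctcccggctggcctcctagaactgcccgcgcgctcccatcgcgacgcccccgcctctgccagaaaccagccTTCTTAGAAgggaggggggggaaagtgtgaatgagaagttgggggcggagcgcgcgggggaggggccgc
Pim1: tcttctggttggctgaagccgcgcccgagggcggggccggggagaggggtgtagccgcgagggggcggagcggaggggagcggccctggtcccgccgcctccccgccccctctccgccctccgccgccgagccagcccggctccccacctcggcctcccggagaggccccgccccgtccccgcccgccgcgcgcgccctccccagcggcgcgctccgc
Windows from 250 bases before to 50 bases after a RefSeq start were at hand for 6 of the 10 members, Pim1 having 2, while Socs2, Socs5, Socs6 and Socs7 had none. The GAS motif, searched on both strands, occurred in 2 of these 7 windows, those of Cish and Socs3, and in 8.3% of 32851 mouse windows. Cish held 2 matches, TTCCTGGAA beginning at its start and TTCTTGGAA beginning 11 bases after it, and 0.457% of all windows held 2 or more. In Socs3 the match TTCTTAGAA began at position -154 from the RefSeq start. The AP-1 motif TGANTCA (7.81% of all windows), the CRE motif TGACGTCA (1.79%) and the Hox-Pbx motif TGATTNAT (3.22%) had no match in the 7 windows. The first Pim1 window was 81.3% G or C and that of Socs3 73.3%, against a median of 52.7% over all windows. These matches describe the letters of the windows and show no binding.

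Totals ran from 6602851 to 6734284 counts per sample, and 3 counts, the floor used here, corresponded to 0.445 to 0.454 CPM, the count scaled to a common library total, for counting error only. Counts were normalized by the TMM method of edgeR, which takes account of library size and composition. The myeloid progenitor markers Kit, Mpo and Elane were detected in all samples, and all 10 markers of that list passed the expression filter. Hoxa10, the fusion partner, had a normalized count of 129 in NA MPs and 8.18 in WT MPs (log2 fold change 3.96, adjusted p = 1.13e-24, edgeR), and Nup98 had 958 and 598 (0.68, adjusted p = 5.63e-14, edgeR), which follows the labels. Along the first principal component (66.0% of the variance) the groups were separate. On the second (6.28%) NA MP replicate 1 stood at 19.5, apart from the other samples, which lay between -8.50 and 1.19. In bulk samples such as these, fewer cells of a type and less RNA per cell cannot be told apart.

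**Figure D1:**
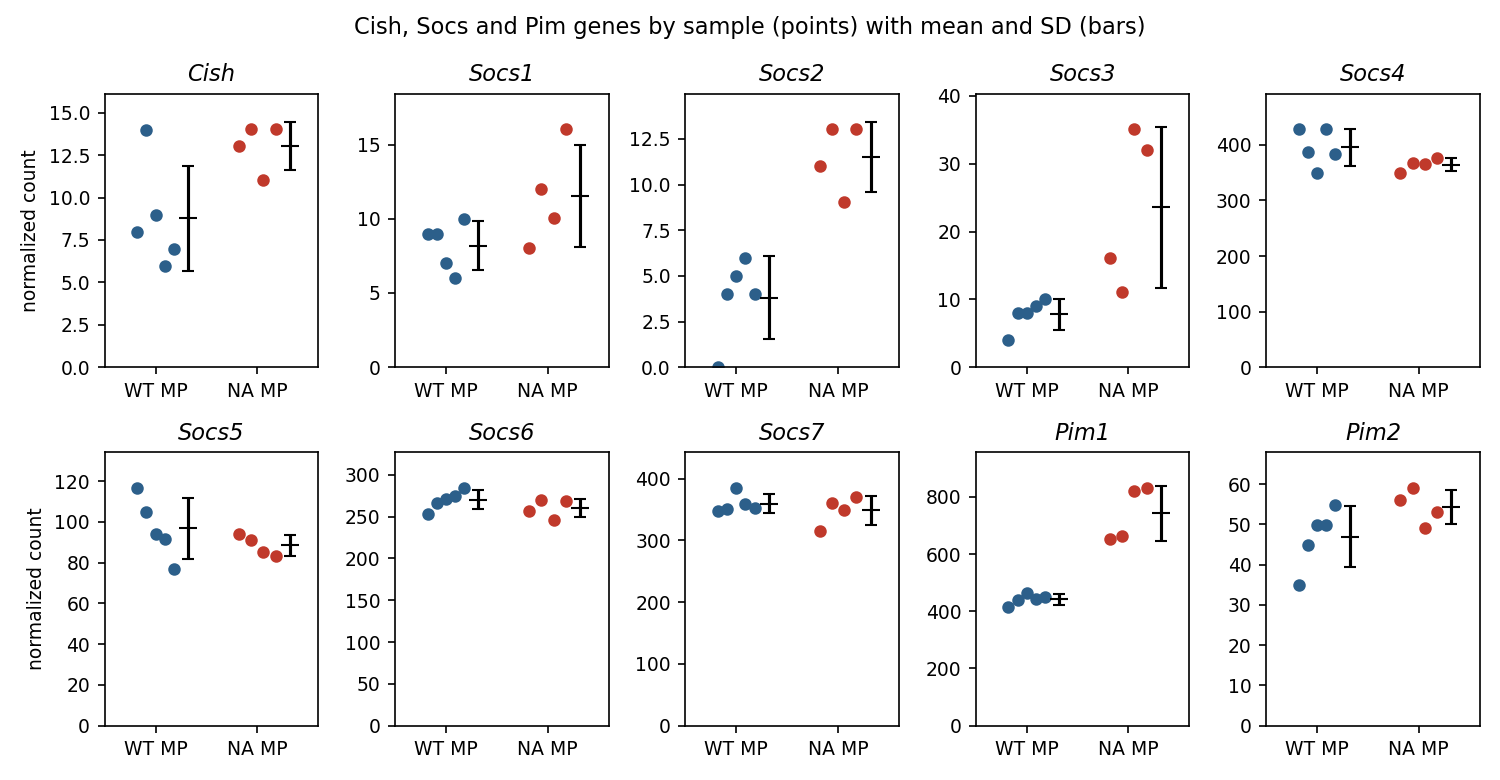
Normalized counts (y axes, linear, from 0) of the 10 genes in each of the 5 WT MP samples (blue points) and 4 NA MP samples (red points), with mean and SD (black bars). For Socs2, Socs3 and Pim1 every NA MP point lies above every WT MP point, and NA MP replicates 3 and 4 are the highest for Socs3 and Pim1.

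Of the 10 members, 8 passed the filter and entered the edgeR quasi-likelihood test, which used Benjamini-Hochberg adjustment over all 11966 tested genes. Socs3 and Cish met the minimum count of 10 in every NA MP sample but in few WT MP samples. These 2 genes thus entered the test only through the group where they are higher, which limits the Socs3 call. At an adjusted p under 0.05, 2 of the 8 were called, Socs3 and Pim1, both higher in NA MPs. Among all tested genes 34.2% were called, 17.9% as higher and 16.3% as lower in NA MPs. The share of members called in either direction was no higher than the 34.2%. Their share called as higher stood above the 17.9%, on 2 genes only. Without the filter 3 of 10 members were called, Socs2 being added, against 21.4% of 20102 genes. In DESeq2 it was 3 of 10 against 20.4% of 14899. Both differ from the main result by Socs2 alone, and so few members cannot show a share above or below the background. With at least 10 counts in every sample 1 of 6 members was called, Pim1, against 33.7% of 11124 genes. The median log2 fold change of the 8 was 0.086, against -0.0013 over all tested genes. The groups did not overlap in 2 of the 8 members and in 26.3% of all tested genes.

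Cish, which binds activated cytokine receptors and is a well known STAT5 target, lies at chr9:107296026-107302784 (plus strand, GRCm38, as for all positions here). Its normalized count was 13.04, 14.03, 11.03 and 14.03 in NA MP replicates 1 to 4. In WT MP replicates 1 to 5 it was 7.98, 13.97, 8.98, 5.99 and 6.99. WT MP replicate 2 lay within the range of the NA MPs, and the other 4 WT MPs lay below it. Its log2 fold change was 0.56 (SE 0.302, 95% interval -0.044 to 1.17), which did not pass the threshold (adjusted p = 0.151, edgeR). An exact two-sided permutation test of the means gave p = 0.0476, unadjusted. The pooled counts were 52 in NA MPs and 44 in WT MPs, a ratio on the normalized scale of 1.48 with a 95% counting interval of 0.974 to 2.27. Cish overlaps the genes Gm17041 and Gm17040 on the opposite strand, and whether the counting used strand is not given in the sources used here. Gm17040 had no counts in any sample, and Gm17041 had at most 5.01 normalized counts in NA MPs and 3.99 in WT MPs.

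Socs1 (chr16:10782240-10785536, minus strand) and Socs3 (chr11:117966079-117970047, minus strand) encode the members able to inhibit JAK activity directly. Socs1 restrains interferon signals above all, and Socs3 signals through gp130 and the G-CSF receptor. Socs3 had normalized counts of 16.05, 11.03, 35.1 and 32.1 in NA MP replicates 1 to 4. In WT MP replicates 1 to 5 they were 3.99, 7.98, 7.99, 8.98 and 9.98. The groups did not overlap, although NA MP replicate 2 was close to the highest WT MP, and NA MP replicates 3 and 4 stood above replicates 1 and 2. The NA MP mean was 23.6 ± 11.8 (SD, n = 4) and the WT MP mean 7.78 ± 2.28 (SD, n = 5). This gave a log2 fold change of 1.58 (SE 0.318, 95% interval 0.94 to 2.23, adjusted p = 0.000149, edgeR). The exact two-sided permutation test gave p = 0.0159, the smallest that 9 samples split 4 and 5 allow. Since pooled counts were only 94 and 39, the ratio carried a counting interval of 2.06 to 4.52. Without NA MP replicate 3 the log2 fold change was 1.33 (adjusted p = 0.00182, edgeR), the lowest value with any sample left out.

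Socs1 had 8.02, 12.03, 10.03 and 16.04 normalized counts in NA MP replicates 1 to 4. In WT MP replicates 1 to 5 it had 8.98, 8.98, 6.99, 5.99 and 9.98. The ranges overlapped, the means being 11.5 ± 3.42 (SD, n = 4) and 8.18 ± 1.64 (SD, n = 5). Socs1 did not pass the expression filter, and in a fit without it the log2 fold change was 0.48 (SE 0.337, adjusted p = 0.362, edgeR). The exact two-sided permutation test gave p = 0.0952.

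Socs2, best known for limiting growth hormone signals, lies at chr10:95385362-95417180 (minus strand). Its normalized count was 11.03, 13.03, 9.03 and 13.03 in NA MP replicates 1 to 4. In WT MP replicates 1 to 5 it was 0, 3.99, 4.99, 5.99 and 3.99. The groups did not overlap, at counts near the floor in WT MPs. Socs2 did not pass the filter and has no value in the main test. Without the filter, over 20102 genes, the log2 fold change was 1.57 (SE 0.408, 95% interval 0.77 to 2.37, adjusted p = 0.00110, edgeR). DESeq2 gave 1.599 (adjusted p = 0.0157), and the exact two-sided permutation test p = 0.0159. From pooled counts of 46 and 19 the ratio was 3.04 (95% counting interval 1.75 to 5.49).

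**Figure D2:**
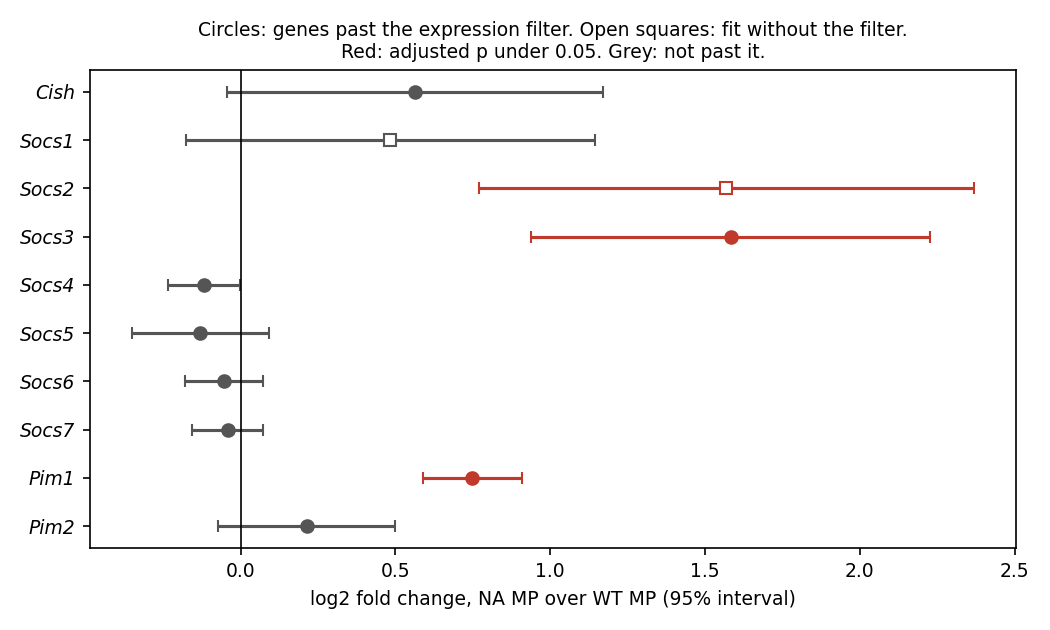
Log2 fold change of NA MPs over WT MPs (x axis) for each gene, with its 95% interval, from the edgeR fit with the expression filter (circles) or without it (open squares, Socs1 and Socs2). Red marks an adjusted p under 0.05, reached by Socs2, Socs3 and Pim1, and the intervals of Socs1, Socs5, Socs6, Socs7, Cish and Pim2 include 0.

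Socs4, Socs5, Socs6 and Socs7 have long N-terminal regions, and Socs4 and Socs5 are known for acting on the epidermal growth factor receptor. These 4 genes were abundant enough for intervals narrower than those of Cish and Socs3. Socs4 (chr14:47276931-47296102, plus strand) had 349, 367, 366 and 376 normalized counts in NA MPs and 428, 387, 349, 428 and 384 in WT MPs, in replicate order. The ranges overlapped because WT MP replicate 3 lay at the low end of the NA MPs. Socs4 had a log2 fold change of -0.12 (SE 0.0576, 95% interval -0.23 to -0.0018), with an unadjusted p = 0.0467 and an adjusted p = 0.112 from edgeR. Without WT MP replicate 3 it was -0.16 and passed the threshold (adjusted p = 0.0318, edgeR).

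Socs5 (chr17:87107679-87137839, plus strand) ranged from 83.2 to 94.3 normalized counts in NA MPs and from 76.9 to 117 in WT MPs. For Socs5 the log2 fold change was -0.13 (95% interval -0.35 to 0.091, adjusted p = 0.393, edgeR). Socs6, which binds KIT among other receptors, ranged from 246 to 270 in NA MPs and from 253 to 285 in WT MPs. For Socs6 it was -0.054 (95% interval -0.18 to 0.073, adjusted p = 0.550, edgeR). Socs7 (chr11:97362551-97398542, plus strand) ranged from 316 to 371 in NA MPs and from 348 to 385 in WT MPs, and its log2 fold change was -0.041 (95% interval -0.16 to 0.073, adjusted p = 0.622, edgeR). The exact two-sided permutation tests gave p = 0.127 for Socs4, 0.333 for Socs5, 0.270 for Socs6 and 0.476 for Socs7. All 4 ranges overlapped between the groups, and the intervals of Socs6 and Socs7 leave room only for differences within 0.18 on the log2 scale.

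Pim1 (chr17:29490753-29496112, plus strand) was the most abundant member per length. Its normalized count was 654, 665, 819 and 832 in NA MP replicates 1 to 4. In WT MP replicates 1 to 5 it was 413, 439, 463, 444 and 449. The lowest NA MP sample stood well above the highest WT MP sample, and the NA MPs fell into a lower pair (replicates 1 and 2) and a higher pair (replicates 3 and 4). The means were 742 ± 96.3 (NA MPs, SD, n = 4) and 442 ± 18.3 (WT MPs, SD, n = 5), a fold of 1.68. On the log2 scale Pim1 rose 0.75 (SE 0.0738, 95% interval 0.59 to 0.91, adjusted p = 1.44e-06, edgeR), and with any sample left out it lay between 0.69 and 0.81. The exact two-sided permutation test gave the smallest possible p = 0.0159. Gm26885 overlaps Pim1 on the opposite strand and is absent from the deposited counts, so its level could not be read.

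Pim2 (chrX:7878262-7883432, plus strand) had 56.2, 59.1, 49.1 and 53.1 normalized counts in NA MPs and 34.9, 44.9, 49.9, 49.9 and 54.9 in WT MPs, in replicate order. The groups overlapped, and WT MP replicate 1 was the lowest sample. The log2 fold change of Pim2 was 0.21 (SE 0.143, 95% interval -0.074 to 0.50, adjusted p = 0.265, edgeR), and the exact two-sided permutation test gave p = 0.111. The interval of Pim2 lies below that of Pim1, but the difference between these kinase genes was not tested. Pim3, their close relative, was in the list of STAT targets and rose 0.23 on the log2 scale (adjusted p = 0.0111, edgeR).

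Levels between genes were compared as CPM per kb of summed exon length. In WT MPs Pim1 was highest at 19.8 ± 0.821 (SD, n = 5), followed by Socs4 at 8.65 and Socs7 at 7.44, whose sample ranges overlapped. Socs6 stood at 3.58, apart from its neighbours, and Pim2 at 2.53 and Socs5 at 2.27 overlapped. The low members were Socs1 at 0.424, Socs3 at 0.405 and Cish at 0.206, with each range overlapping the next, and Socs2 was last at 0.0599. In NA MPs the order of the upper 6 was the same, from Pim1 at 33.2 ± 4.31 (SD, n = 4) to Socs5 at 2.08, and here Pim2 at 2.93 did not overlap Socs5. Socs3, at 1.23 ± 0.616 (SD, n = 4), came next with a range that overlapped that of Socs1 at 0.597, then Cish at 0.306 and Socs2 at 0.182. With the length of the longest coding transcript instead, Cish rather than Socs1 came seventh in WT MPs, at 0.464, and the 3 low members still overlapped. The same change of length moved Socs6 from 3.58 to 6.73, still below the range of Socs7 (mean 7.71), and Socs2 from 0.0599 to 0.135.

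**Figure D3:**
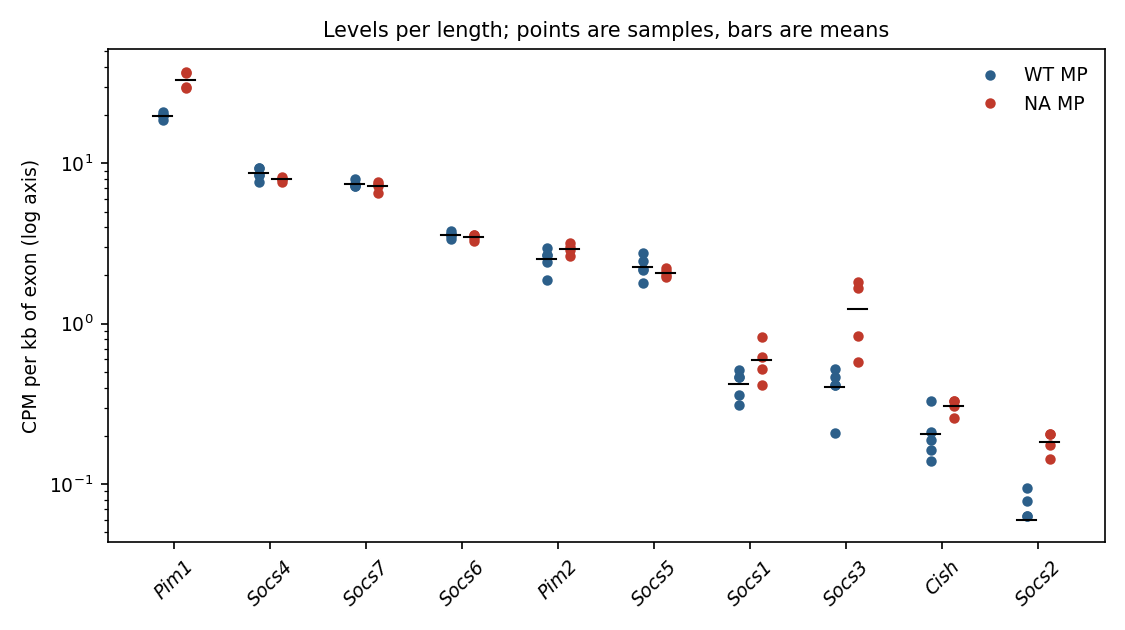
CPM per kb of exon (y axis, log scale) of the 10 genes in each WT MP (blue) and NA MP (red) sample, with group means as bars, ordered by the WT MP mean. Pim1 is the highest gene in both groups and Socs2 the lowest, and WT MP replicate 1 has no Socs2 count and so no point on the log axis.

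The samples were further described by their deviations from the group mean on the log2 CPM scale. Over the 9 samples, which share sort, library type and similar depth, Pearson's r between Pim1 and Socs3 was 0.903, and between Pim2 and Socs6 0.857. Between Cish and Socs3 it was -0.191, and between Cish and Pim1 -0.115. These values are descriptions over 9 points. The summed normalized count of 27 immediate early genes, which are transcribed within minutes of a stimulus or of cell handling, was 22825, 16267, 31722 and 33809 in NA MP replicates 1 to 4 and 4460 to 8044 in WT MPs. Of the 22 tested, 19 were higher in NA MPs (median log2 fold change 1.87). The deviations of Socs3 and Pim1 had r = 0.926 and 0.863 with this list. The part of these genes in the Socs3 and Pim1 results was not tested.

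Late neutrophil markers summed to 3861, 4555, 5884 and 5794 in NA MP replicates 1 to 4 and to 3283 to 3820 in WT MPs. Of 9 tested, 4 were higher (Camp, Ngp, S100a9 and Itgam) and Mmp8 was lower, and Ly6g, a defining marker of neutrophils, had at most a few counts (mean 1.76 in NA MPs and 0.399 in WT MPs). As mean log2 CPM of the tested markers, the scale of the correlations, the list did not separate the groups. NA MP replicates 1 and 2 stood at 5.09 and 5.12, within the 4.86 to 5.21 of WT MPs. NA MP replicates 3 and 4 stood at 5.67 and 5.52. The deviations of this list had r = 0.949 with Socs3 and 0.927 with Pim1. Erythroid markers were lower in NA MPs, with 16 of 17 tested lower and sums of 7138 to 8972 against 13320 to 14658. Pro-B and pre-B markers were higher for all 13 tested, with sums of 1539 to 2719 against 391 to 426. For these lists r with Socs3 was 0.0745 and 0.0773, and with Pim1 -0.0012 and 0.291. The mast cell and basophil list (sums of 5021 to 5828 against 3790 to 4004, with 6 of 8 tested higher) had r = -0.769 with Socs3, and the monocyte and macrophage list (14169 to 16634 against 13309 to 14300, 8 of 13 higher) 0.423. Of the 11 T and NK cell markers only Lck and Nkg7 were tested, and both were higher. Lck rose 2.25 (mean 52.6 against 11, adjusted p = 5.14e-13, edgeR) and Nkg7 rose 0.17 (1963 against 1745, adjusted p = 3.34e-05, edgeR). Their list summed to 1969 to 2106 against 1674 to 1823, and the defining T cell markers Cd3e, Cd3g and Trac were at 0 in every sample. The part of any of these cell types in the values of the members was not tested.

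**Figure D4:**
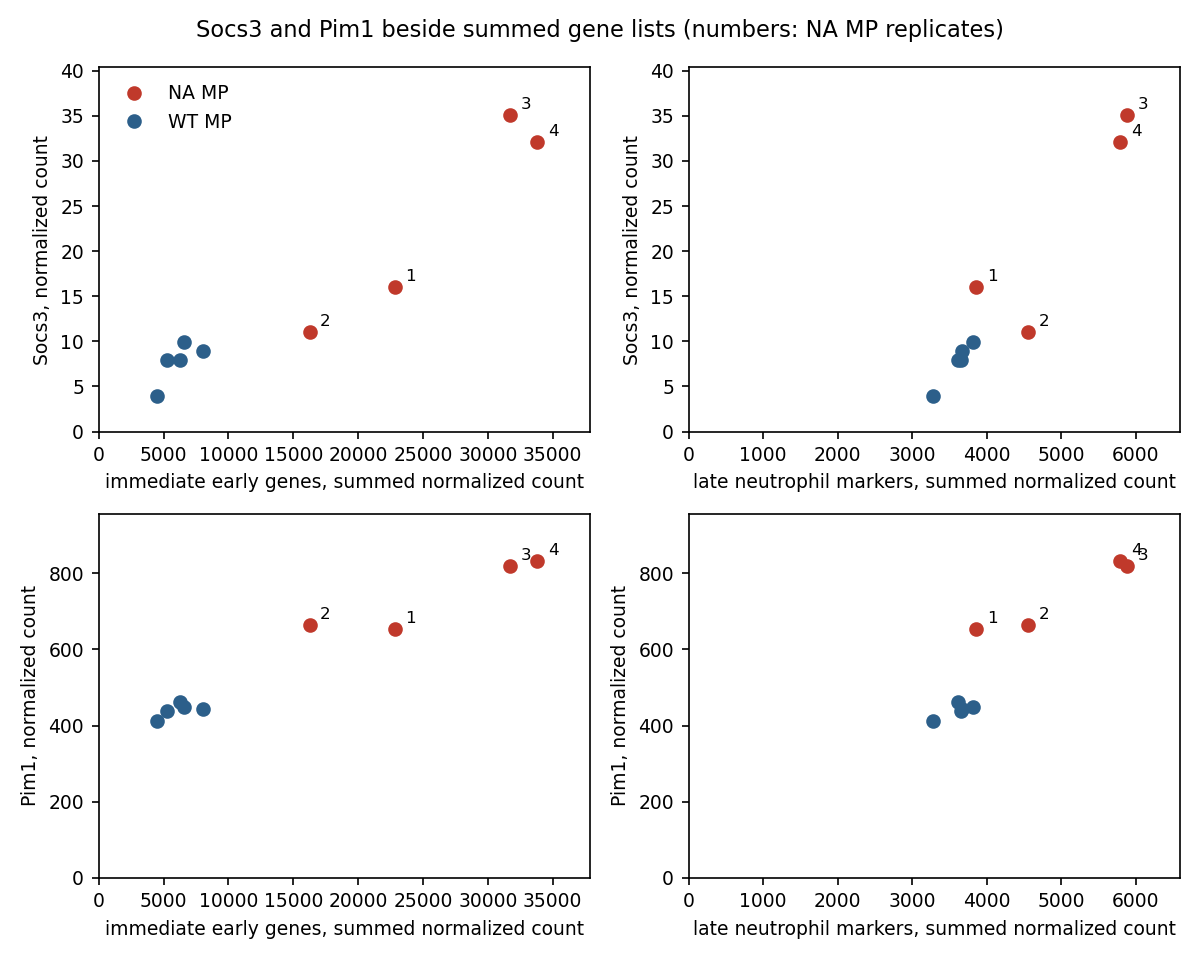
Normalized counts of Socs3 (upper panels) and Pim1 (lower panels) in each sample against the summed normalized count of immediate early genes (left) and late neutrophil markers (right), all axes linear from 0. NA MP replicates 3 and 4 (red, numbered) are highest on both axes in every panel, and WT MPs (blue) lie together at the low end.

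The genes most like Socs3 in these deviations, among 9655 genes with a mean log2 CPM of at least 3, were Trim23 (r = 0.993), mt-Co1 (0.963), mt-Nd1 (0.961), Mcl1 (0.960) and ENSMUSG00000071286 (0.960). For Pim1 they were Eif2ak3 (r = 0.990), ENSMUSG00000085607 (0.981), Erbb3 (0.971), Rnf169 (0.960) and Slc25a25 (0.953). Picked as the highest among so many genes over 9 samples, these r are inflated by the selection. Socs3 itself lay below the level of 3, at 3.99 to 35.1 normalized counts per sample. Likeness across samples within a group did not go with a difference between groups in every case. Trim23, mt-Co1 and mt-Nd1 did not pass the threshold (adjusted p = 0.0992, 0.437 and 0.619, edgeR), while Mcl1, a survival gene, rose 0.48 (adjusted p = 0.00311, edgeR).

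The kinases and factors upstream of the members were tested in the same fit. Of 11 JAK and STAT genes 5 were higher in NA MPs, with a list median of -0.019. Among all tested genes 17.9% were higher and 16.3% lower, the shares to set beside this count and those of the other lists. Jak3, the kinase of the common gamma chain, rose 0.48 on the log2 scale (adjusted p = 2.36e-13, edgeR). Stat4 rose 0.33, Stat3 0.29, Stat5a 0.17 and Stat5b 0.16, with adjusted p-values from 8.47e-09 for Stat3 to 0.000436 for Stat5a (edgeR). Stat3 and Stat5a overlap on opposite strands. The log2 fold changes of Jak1 (-0.023), Jak2 (-0.032), Tyk2 (-0.039), Stat2 (-0.037) and Stat6 (-0.019) did not pass.

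Of 30 receptor genes 22 were tested, with 9 higher and 4 lower. Il7r, the interleukin-7 receptor of early lymphoid cells, rose 3.22 and Csf2rb2, the beta chain of the mouse interleukin-3 receptor, rose 0.70. The erythropoietin receptor gene Epor fell by 0.99. Il7r is itself one of the pro-B and pre-B markers above and Epor one of the erythroid markers, so neither is a separate observation. Of 15 ligand genes 3 were tested, and Osm, oncostatin M, rose 1.43 (adjusted p = 0.0153, edgeR), from a mean of 63.9 to 172.

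Of the 13 other inhibitors of JAK-STAT signalling 3 were higher and 2 lower. Usp18, which limits interferon receptor signals, rose 0.75, and the phosphatase gene Ptprc rose 0.26. Cbl, a ubiquitin ligase for receptors, fell by 0.25 and Ptpn11 fell by 0.16. None of the 6 subunits of the ligases that the SOCS box recruits (Elob, Eloc, Cul5, Rnf7, Cul2 and Rbx1) passed the edgeR test (0 at an unadjusted p under 0.05, and 0 in DESeq2), and their median log2 fold change was -0.047.

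Of the 17 tested other targets of STAT3 and STAT5, 9 were higher and 2 lower in NA MPs, against 17.9% and 16.3% of all tested genes. Their median was 0.31, and the 2 lower genes were Ccnd2 (-0.18) and Myc (-0.10). Trib1 rose 2.51, Junb 1.55, Osm 1.43 and the cell cycle inhibitor gene Cdkn1a 1.05. Junb is itself an immediate early gene. Of the 10 substrates and partners of Pim kinases, Cdkn1b rose 0.28 and Myc fell by 0.10, and the median log2 fold change was 0.00096.

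**Figure D5:**
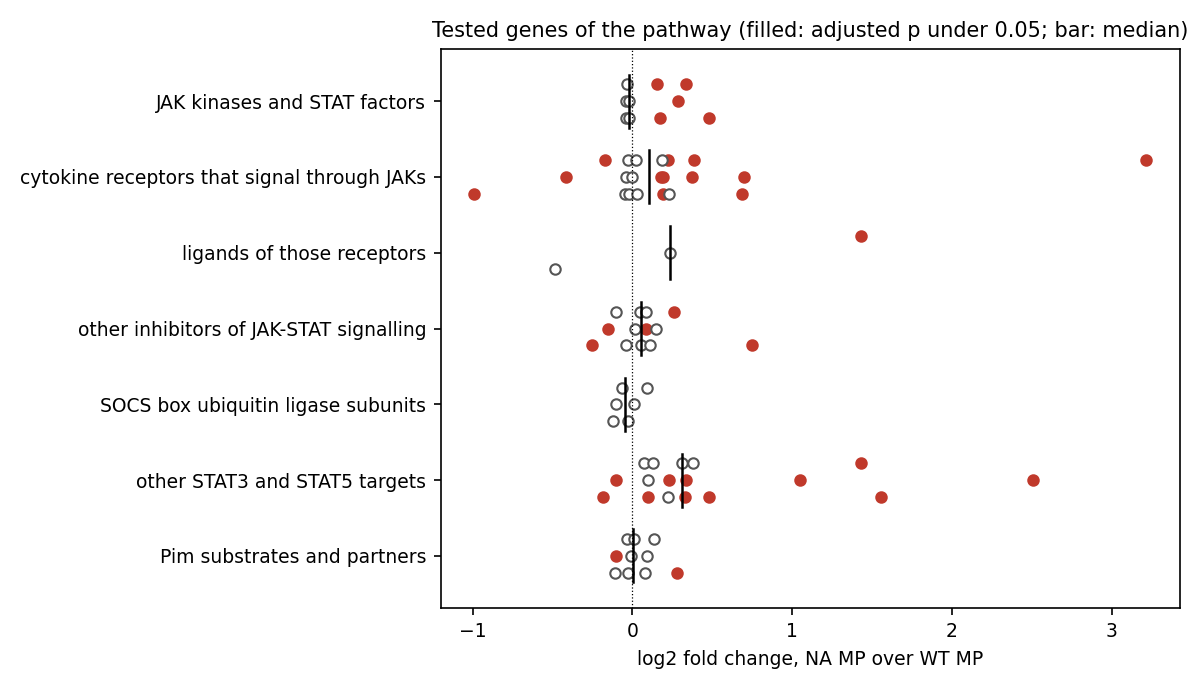
Log2 fold change of NA MPs over WT MPs (x axis) for tested genes of 7 pathway lists, with filled red points for an adjusted p under 0.05, open points for the rest and a bar at the median of all tested genes of the list. Il7r at 3.22 lies farthest to the right among the receptors, and all 6 ligase subunits lie near 0 with open points.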

How the data were processed

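RNA of sorted myeloid progenitors was made into libraries with the TruSeq kit and sequenced on a NextSeq. The authors aligned the reads and deposited the expected count of each gene from RSEM, not normalized between samples. The submitters' processing notes name bcl2fastq, RSEM, DESeq2 and mm10 (GRCm38). The RSEM version, annotation and strand setting are not given in the sources used here. No molecular identifiers were used, so intervals and floors cover counting error only. Totals lay within 6602851 to 6734284, and whether they had been equalised is not given.

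Rounded to whole numbers, the counts were fitted in edgeR 4.0.16 (R 4.3.3) with TMM, filterByExpr (minimum count 10), the robust quasi-likelihood test and Benjamini-Hochberg adjustment, at a threshold of 0.05. Of 20102 genes with any count 11966 were tested. Intervals are 95% and SD is over samples. For single genes an exact two-sided permutation test was run over 126 splits, whose smallest p is 0.0159. The fit was checked on simulated data. The groups come from the sample titles, and all 9 columns were used. Positions and lengths are from GENCODE M21, and symbols matched 32916 genes.

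The members and lists were chosen with earlier results of these data known. Genes named were all members, Nup98, Hoxa10, the JAK and STAT genes, up to 4 genes past the threshold with the largest change in each pathway list, up to 4 of each immediate early or marker list, and the 5 genes most like each member past the threshold. Pim3, Mcl1, Ccnd2 and Ly6g were named outside that rule, after their values were seen. So were the 5 late neutrophil markers past the threshold, the T and NK cell markers and the 6 ligase subunits. Alternatives were DESeq2 1.42.0, other normalizations and filters, the test without its robust option, a threshold of 0.01, unrounded counts, a GC and length offset, a replicate block and leaving out each sample. Protein sequences were not used here, and some genes and a list within the rule are not reported here.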

Additional observations from a re-analysis of the deposited data

How the results depend on the processing

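Leaving out each sample gave 2 to 3 members past the threshold, 2 to 3 of them higher and 0 to 1 lower. The added call was Socs2 without NA MP replicate 3, or Socs4 without WT MP replicate 3. Socs2 then passed the filter only through the remaining NA MPs, the group where it is higher, since WT MPs had at most 5.99 normalized counts. Over all genes the calls then ran from 3632 to 3942, against 4093. With at least 10 counts in every sample, 6 members were tested, Socs3 was not among them, and 1 was called and higher, Pim1, against 33.7% of all 11124 genes tested. Without the filter, and in DESeq2, 3 of 10 members were called, Socs2 being added, against 21.4% and 20.4% of all genes. Shares of so few members turn on single genes. Socs3 and Pim1 kept their direction and call under each alternative in which they were tested. The log2 fold change of Socs6 became 0.041 (adjusted p = 0.656, edgeR) with the GC content and length offset, and that of Socs7 ran from -0.072 to 0.0032 with each sample left out. The cause was not tested. Replicate numbers 1 to 4 occur in both groups, and deviations of same-numbered samples had correlations of 0.0104, -0.00037, -0.0235 and 0.0558. The numbers were not taken to pair samples, and these values cannot show whether same-numbered samples were handled together. With the replicate block (WT MP replicate 5 left out) 3674 genes and 2 members were called. Among the pathway lists, the calls among ligands (1) became 2 without the filter, in DESeq2 or without NA MP replicate 2, and 0 at a threshold of 0.01, those among other inhibitors (5) became 3 in DESeq2, and those among STAT3 and STAT5 targets (11) became 7 at a threshold of 0.01. The ligase subunits had 1 call without NA MP replicate 2, and the Pim substrates 1 rather than 2 without NA MP replicate 4. Counts under 20 per sample limit what can be said of Socs1, Socs2 and Cish, and of Socs3, for which 7 of 9 samples were under 20.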
